A study of Mus musculus with 24 samples.

Results

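The enzymes that attach sialic acid to glycans were examined in RNA of MC38 cells, a mouse colorectal cancer line of C57BL/6 origin. The 10 genes St3gal1 to St3gal6, St6gal1, St6galnac2, St6galnac4 and St6galnac6 were taken by symbol from a table of 52636 genes in 24 samples. Of these 10 sialyltransferases, 8 were detected in every sample, and St6gal1 and St6galnac2 were at or near 0. The largest differences were in St3gal6, which fell 18.8-fold in MC38-FUT9 cells and 2.93-fold in MC38-COSMC KO cells against their mock lines. Unmodified MC38-WT cells also had a 2.08-fold lower St3gal6 mean than the mock line of the knockouts.

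Sialyltransferases are Golgi enzymes that take sialic acid from the activated donor CMP-sialic acid and add it to the end of a glycan chain. The ST3Gal and ST6Gal enzymes attach it to galactose in different linkages, and the ST6GalNAc enzymes attach it to N-acetylgalactosamine. The capped glycans are ligands of Siglec receptors on immune cells, and in colorectal tumors sialylated structures such as sialyl Lewis antigens and sialyl-Tn are well known. MC38 cells can be changed at the donor, at the acceptor or at the competing step of fucosylation, and the 8 lines studied here cover all of these.

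The series held 3 samples from each of 8 lines. MC38-WT cells were unmodified, had passage numbers 7 to 9 and were grown without puromycin, whereas all other lines were grown with it. MC38-MOCK#1 is the CRISPR-Cas9 mock line and the reference of the knockouts. The knockouts were MC38-CMAS KO (target gene CMAS, the enzyme that makes CMP-sialic acid), MC38-COSMC KO (target COSMC, gene C1galt1c1, the chaperone of the synthase that extends the Tn antigen to the T antigen) and MC38-DKO (both targets). These 4 lines had passages 4 to 6. MC38-MOCK#2 is the CRISPR-dCas-VPR mock line and the reference of MC38-FUT4 and MC38-FUT9, in which a dead Cas9 fused to an activator was aimed at a fucosyltransferase gene. Passages were 6 to 8 in MC38-MOCK#2 and MC38-FUT9, and 7, 8 and 7 in MC38-FUT4. According to the study's methods the C1galt1c1 knockout was a bulk population sorted for binding of the lectin HPA, not a clone. The same methods describe the CRISPR-Cas9 mock line as transfected with an empty construct. The derivation of the lines outside that article is not given in the sources used here.

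Totals per sample lay between 10911849 and 12263307 normalized counts, which are read counts that the authors scaled per library and rounded. The RNA of the targeted genes was checked first. Cmas had 93 to 126 normalized counts in MC38-CMAS KO, 122 to 142 in MC38-DKO and at least 272 in every other sample. C1galt1c1 had 145, 163 and 124 in MC38-COSMC KO and 242, 220 and 251 in MC38-MOCK#1. It had 206, 166 and 175 in MC38-DKO, which overlapped the 215, 181 and 152 of MC38-CMAS KO. A frameshift need not lower the RNA, so these levels do not report the edit itself. Fut9 had 955, 641 and 676 in MC38-FUT9. Fut4 was listed at 0 or 1 in all 24 samples, also in the line labelled FUT4, where Fut9 had 209, 171 and 186 against at most 7 in the lines outside the 2 FUT lines. That line is therefore called the line labelled FUT4 below. Of 8 markers of colorectal epithelium only Krt20 exceeded 10 in any sample, with Epcam and Cdx2 at or near 0, whereas all 5 mesenchymal markers did. Krt20 had 448, 263 and 468 in the line labelled FUT4 and 30 to 44 in MC38-CMAS KO. None of 4 leukocyte markers exceeded 10, and of 2 endothelial markers Cdh5 did, with at most 16. In the line labelled FUT4, samples 1 and 3 carried the same passage number and differed less than any other pair of samples of a line, and they were counted separately.

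To place the members in the genome, the RefSeq sequence upstream of their start sites (assembly GRCm38.p6) is shown for the 4 detected members with the highest F between lines (St3gal6, St6galnac6, St3gal4 and St3gal5) and, for contrast, for St6gal1, which was at or near 0. Each run is the 250 bases before the start, 5′ to 3′ on the gene's strand. Capitals mark GGGCGG or its complement CCGCCC, the core of a GC box. St3gal6 has 2 start sites in RefSeq, and their windows differ in composition.
St3gal6, inner start, chr16:58523427-58523676, minus strand: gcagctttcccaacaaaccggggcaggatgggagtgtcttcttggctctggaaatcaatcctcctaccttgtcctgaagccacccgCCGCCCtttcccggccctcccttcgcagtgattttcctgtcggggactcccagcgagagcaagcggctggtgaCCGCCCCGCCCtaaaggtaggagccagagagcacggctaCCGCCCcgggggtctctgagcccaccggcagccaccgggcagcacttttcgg
St3gal6, outer start, chr16:58524254-58524503, minus strand: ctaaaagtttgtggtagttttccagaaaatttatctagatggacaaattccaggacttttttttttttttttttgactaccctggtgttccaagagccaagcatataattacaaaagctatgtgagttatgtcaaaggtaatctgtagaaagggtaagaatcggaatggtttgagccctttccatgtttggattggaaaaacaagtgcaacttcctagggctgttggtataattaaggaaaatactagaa
St3gal4, chr9:35116865-35117114, minus strand: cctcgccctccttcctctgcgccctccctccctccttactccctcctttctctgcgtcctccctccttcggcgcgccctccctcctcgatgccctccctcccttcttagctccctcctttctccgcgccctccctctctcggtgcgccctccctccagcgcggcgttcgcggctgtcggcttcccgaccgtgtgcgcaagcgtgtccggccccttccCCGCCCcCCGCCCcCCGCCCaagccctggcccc
St3gal5, chr6:72097358-72097607, plus strand: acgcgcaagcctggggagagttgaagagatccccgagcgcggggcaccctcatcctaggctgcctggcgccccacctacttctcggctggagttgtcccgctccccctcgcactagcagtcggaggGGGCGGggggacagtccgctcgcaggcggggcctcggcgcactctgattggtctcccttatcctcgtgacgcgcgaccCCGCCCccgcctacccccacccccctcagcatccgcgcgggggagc
St6galnac6, chr2:32599459-32599708, plus strand: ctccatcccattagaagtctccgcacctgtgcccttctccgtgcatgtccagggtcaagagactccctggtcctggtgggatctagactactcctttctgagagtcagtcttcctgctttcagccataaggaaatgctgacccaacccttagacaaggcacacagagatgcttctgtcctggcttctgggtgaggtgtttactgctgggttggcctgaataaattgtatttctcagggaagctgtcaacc
St6gal1, outermost of 3 starts, chr16:23224490-23224739, plus strand: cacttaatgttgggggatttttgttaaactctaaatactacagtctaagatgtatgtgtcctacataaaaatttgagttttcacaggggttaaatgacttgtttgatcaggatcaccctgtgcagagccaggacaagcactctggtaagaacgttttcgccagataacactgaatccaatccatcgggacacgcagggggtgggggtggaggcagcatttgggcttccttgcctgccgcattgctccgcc
The inner St3gal6 window held 16 CpG dinucleotides and 4 GC-box cores, of which a pair shared a base, and the outer window held 1 CpG and no core. St3gal4 had 25 CpG and 3 cores, and St3gal5 had 25 CpG and 2 cores. St6galnac6 had 2 CpG and no core. The 3 St6gal1 windows held 6, 10 and 5 CpG and no core. Of all 32851 windows of this length 32.7% held a core on either strand, and their median CpG number was 6. Of the 10 sialyltransferases 7 had a window, and those of St3gal3, St3gal4, St3gal5, St3gal6 and St6galnac4 held a core. The gene-level values do not tell which start was used.

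The genes lie on 8 chromosomes of GRCm38. St6galnac4 (chr2:32587095-32599698) and St6galnac6 (chr2:32599709-32620806) are direct neighbours on the plus strand. St3gal6 (chr16:58468125-58524243) and St6gal1 (chr16:23224740-23360350) share chromosome 16 at a distance. St3gal6 shares 1603 of its 6080 exon bases with the antisense gene Dcbld2, and St3gal4 (chr9:35046576-35119268) shares 412 of its 2923 with the antisense gene 4930581F22Rik. By the study's methods, reads that overlapped several genes were not counted. The strand setting of the counting is not stated, so whether reads from such stretches were left out is not known.

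Within the family the levels, given per kilobase of exon so that genes can be compared, covered a wide range. Over the 24 samples St3gal4 had the highest mean, with 161 normalized counts per kilobase, followed by St3gal2 (129), St3gal5 (122) and St6galnac6 (114). St6galnac4 (56.8), St3gal3 (49.8), St3gal1 (32.3) and St3gal6 (23.0) were lower. St6gal1, which sialylates the galactose of N-glycans, was listed at 0 in 19 samples and had at most 4 normalized counts. St6galnac2, which acts on O-glycans, was listed at 0 in 23 samples and had 2 in the remaining one. MC38 cells thus had RNA of all 6 ST3Gal genes and of 2 of the 3 ST6GalNAc members, with St6gal1 near the limit of detection.

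**Figure D1:**
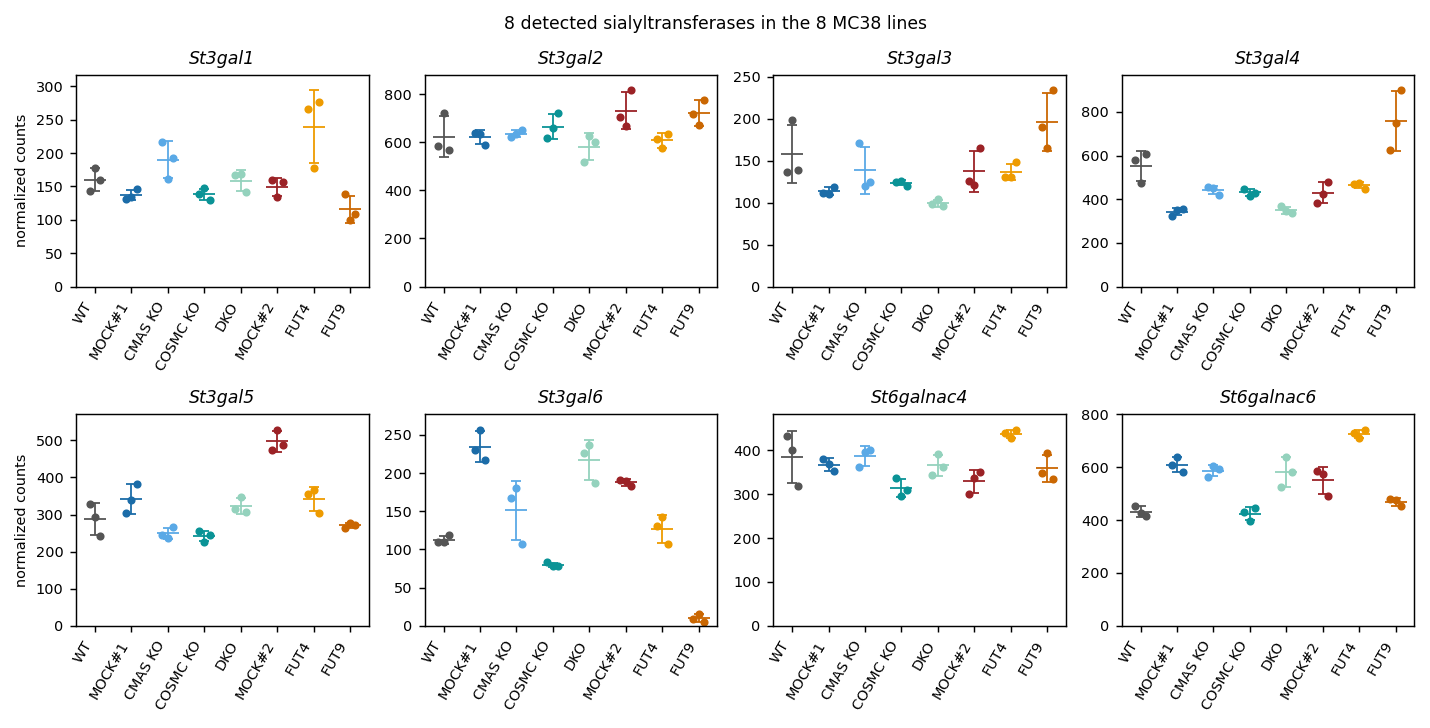
Normalized counts of the 8 detected sialyltransferases (y axis, linear from 0) in the 8 MC38 lines (x axis). Points are the 3 samples of a line, the horizontal bar is the mean and the whiskers are the SD. St3gal6 ranges from 5 in MC38-FUT9 to 257 in MC38-MOCK#1, whereas the St3gal2 samples of neighbouring lines overlap throughout.

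The moderated F-test of limma over the 8 lines asked which members varied between lines at all. Of 9 sialyltransferases tested 8 passed, where 43% of all 23695 genes tested did. The 8 include St6gal1, which was listed at 0 in 19 samples and had 4, 2 and 3 normalized counts in the line labelled FUT4. The filter on zeros kept St6gal1 only because of that line, so its call adds nothing to the count. St3gal6 had the highest F, 72.5 (limma adjusted p = 1.98e-11), followed by St6galnac6 with 22.8 and St3gal4 with 21.9. St3gal2, whose product sialylates O-glycans and gangliosides, missed the threshold (F = 2.88, adjusted p = 0.0615). It passed without sample 2 of MC38-WT (adjusted p = 0.0148) or of MC38-MOCK#2 (adjusted p = 0.0498). With all samples it passed when only genes with a mean of at least 10 were kept (adjusted p = 0.0413). The SD between line means of log2 St3gal6 was 4.57 times its SD within lines, and 98.1% of 10874 genes had a smaller ratio. For St3gal2 this ratio was 0.981, with 28.3% of genes below it.

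The ST3Gal enzymes of type 2 chains are described first. St3gal3, St3gal4 and St3gal6 encode enzymes that cap galactose on N-acetyllactosamine, a step in making sialyl Lewis X and other selectin ligands. St3gal6 had 230, 257 and 217 normalized counts in MC38-MOCK#1 and 226, 237 and 187 in MC38-DKO. It had 191, 190 and 183 in MC38-MOCK#2 and 167, 180 and 107 in MC38-CMAS KO. These 4 lines had the highest means, and the ranges of MC38-MOCK#1, MC38-DKO and MC38-MOCK#2 overlapped in that order. Lower values were found in the line labelled FUT4 (131, 143 and 107), in MC38-WT (110, 110 and 119) and in MC38-COSMC KO (83, 78 and 79). MC38-FUT9 was lowest with 9, 16 and 5. MC38-COSMC KO lay apart from MC38-WT above it and MC38-FUT9 below it, with no overlap on either side.

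St3gal4 was ordered almost the other way round. It had 627, 747 and 899 normalized counts in MC38-FUT9 and 578, 472 and 605 in MC38-WT, and these ranges did not overlap. The line labelled FUT4 (470, 475 and 447), MC38-CMAS KO (454, 453 and 421), MC38-COSMC KO (449, 414 and 430) and MC38-MOCK#2 (384, 426 and 479) overlapped one another. MC38-DKO (367, 344 and 336) and MC38-MOCK#1 (324, 351 and 354) were lowest. St3gal3 was also highest in MC38-FUT9, with 190, 165 and 234, and lowest in MC38-DKO, with 98, 104 and 96. In between, the 5 lines from MC38-WT to MC38-COSMC KO in rank lay between 120 and 198 and MC38-MOCK#1 had 112, 110 and 119.

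St3gal5 encodes GM3 synthase, which sialylates lactosylceramide and opens the ganglioside series. It was highest in MC38-MOCK#2 with 474, 529 and 488 normalized counts, above every other sample. MC38-MOCK#1 had 303, 338 and 383, the line labelled FUT4 354, 366 and 304, and MC38-DKO 316, 347 and 307. Their ranges overlapped. MC38-WT (329, 294 and 241), MC38-FUT9 (265, 278 and 271), MC38-CMAS KO (244, 238 and 266) and MC38-COSMC KO (255, 227 and 244) followed, each overlapping the next.

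St3gal1 and St3gal2 act mainly on the T antigen of O-glycans, the structure that COSMC makes possible, and on gangliosides. St3gal1 was highest in the line labelled FUT4 (266, 177 and 276), followed by MC38-CMAS KO (217, 161 and 193), and lowest in MC38-FUT9 (138, 100 and 109). No line was separated from its neighbour in the order of means. For St3gal2 the line means ran from 582 ± 56.2 (SD, n = 3) in MC38-DKO to 731 ± 77.0 in MC38-MOCK#2, again without a gap between neighbours.

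St6galnac6, linked to gangliosides and disialyl Lewis a, had 729, 709 and 741 normalized counts in the line labelled FUT4, above all other samples. MC38-MOCK#1 (609, 639 and 582), MC38-CMAS KO (563, 603 and 592), MC38-DKO (526, 637 and 582) and MC38-MOCK#2 (585, 575 and 493) formed an overlapping middle. MC38-FUT9 (478, 475 and 453), MC38-WT (455, 425 and 416) and MC38-COSMC KO (431, 396 and 444) were lowest, below every sample of the middle lines. St6galnac4, whose enzyme adds a further sialic acid to sialyl-T, was also highest in the line labelled FUT4 (439, 428 and 447). In the order of St6galnac4 means each of the other lines overlapped the next, from 297 in MC38-COSMC KO to 433 in MC38-WT, which reached into the range of the line labelled FUT4. Lines farther apart in that order could be separate, as MC38-COSMC KO (297 to 337) and MC38-MOCK#1 (352 to 381) were.

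Each modified line was then compared with its mock line by limma on log2(value + 1). An adjusted p (Benjamini-Hochberg over all genes tested) below 0.05 was taken as a change. Replicates were harvests of 1 line, so the p-values measure the spread between such harvests. In bulk RNA fewer expressing cells and less RNA per cell cannot be told apart. MC38-CMAS KO, MC38-COSMC KO, MC38-DKO and MC38-WT were all compared with the same 3 MC38-MOCK#1 samples, and the line labelled FUT4 and MC38-FUT9 with the same 3 MC38-MOCK#2 samples.

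In MC38-COSMC KO cells 4 of 8 sialyltransferases tested changed, where 11.6% of all genes did. St3gal6 fell by 1.54 on the log2 scale (SE 0.11, limma adjusted p = 0.000677), a 2.93-fold lower mean. St3gal5 fell by 0.49 (SE 0.11, adjusted p = 0.0279) and St6galnac6 by 0.53 (SE 0.074, adjusted p = 0.0063), while St3gal4 rose by 0.33 (SE 0.074, adjusted p = 0.0318). The O-glycan enzymes did not pass, with 0.01 for St3gal1 (95% interval -0.24 to 0.26) and 0.10 for St3gal2 (-0.09 to 0.28). St6galnac4, which acts on sialyl-T, had -0.22 (-0.41 to -0.04, adjusted p = 0.126). The median over the 8 was -0.11 against 0.00 over all genes. Dcbld2, which overlaps St3gal6 on the other strand, differed by -0.12 (adjusted p = 0.345). The 124 genes tested within 5 Mb of St6galnac6 had a median of -0.15 and all of chromosome 2 a median of -0.16, and the part of this in the St6galnac6 value was not tested. Of 5 mesenchymal markers Col1a2 (1.23) was higher and Cdh2 (-0.51) lower, and their part was not tested either. Leaving out samples 1 to 3 of either line in turn kept St3gal6 (adjusted p at most 0.0252). St6galnac6 was lost without sample 2 of MC38-MOCK#1 (0.0501) or of MC38-COSMC KO (0.0507). St3gal5 was lost without any sample but MC38-MOCK#1 1 (0.0645 to 0.13). St3gal4 was lost without any of the 6 (0.0515 to 0.108) or when the libraries were rescaled to the same total (log2 0.27, adjusted p = 0.06). Against the same MC38-MOCK#1 samples, unmodified MC38-WT also had less St3gal6 (-1.05) and St6galnac6 (-0.50) and more St3gal4 (0.68). St3gal5 did not pass there (-0.25). MC38-COSMC KO was not compared with MC38-WT by limma, so these differences cannot be assigned to the knockout alone.

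In MC38-CMAS KO cells, in which the CMP-sialic acid synthetase was targeted, 1 of 8 sialyltransferases changed, where 5.76% of all genes did. St3gal4 rose by a log2 fold change of 0.37 (SE 0.076, limma adjusted p = 0.0393), and this call was lost without any of the 6 samples (adjusted p 0.0714 to 0.16). St3gal6 had a difference of -0.66 (95% interval -1.14 to -0.18, adjusted p = 0.111). St3gal5 had -0.45 (-0.70 to -0.19, adjusted p = 0.0625) and St3gal1 0.46 (0.15 to 0.78, adjusted p = 0.0984). St3gal5 passed in the fits of all 8 lines without (0.00853) and with passage (0.0107) and with a mean of at least 10 (0.0402). The samples of the 2 lines did not overlap for these 4 genes and St3gal3, 5 of 8, where 24.3% of all genes showed no overlap. The median over the 8 members was 0.05 against 0.00 over all genes. Of 5 mesenchymal markers Col1a1 (2.94) and Col1a2 (1.77) were higher and Cdh2 (-1.70) lower in MC38-CMAS KO, and of 8 epithelial markers Krt20 was higher (38.3 against 0.667 normalized counts), and their part in the sialyltransferase values was not tested.

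In MC38-DKO cells 0 of 8 sialyltransferases changed by limma, 0 at an unadjusted p below 0.05, and 0.092% of all genes did. St3gal6 differed from MC38-MOCK#1 by -0.12 on the log2 scale (95% interval -0.41 to 0.17, adjusted p = 0.852). St3gal4 differed by 0.03 (-0.18 to 0.23), St3gal5 by -0.07 (-0.33 to 0.18) and St6galnac6 by -0.07 (-0.28 to 0.14). The lower bound for St3gal6 lies above the upper bound of the MC38-COSMC KO difference, -1.28.

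Whether the COSMC knockout difference was the same with and without the CMAS knockout was tested by an interaction term over the 12 samples of MC38-MOCK#1 and the 3 knockout lines. Of 8 sialyltransferases 4 passed, where 22.1% of all genes did. For St3gal6 the difference was -1.54 between MC38-COSMC KO and MC38-MOCK#1 but 0.54 between MC38-DKO and MC38-CMAS KO, an interaction of 2.08 (SE 0.24, limma adjusted p = 3.47e-05). For St3gal5 these differences were -0.49 and 0.37 (interaction 0.86, SE 0.15, adjusted p = 0.000736). For St3gal4 they were 0.33 and -0.34 (interaction -0.67, SE 0.11, adjusted p = 0.000661). For St6galnac6 they were -0.53 and -0.01 (interaction 0.51, SE 0.12, adjusted p = 0.00687). St3gal3 missed the threshold (-0.58, adjusted p = 0.053) and passed without sample 2 (0.0384) or 3 (0.0485) of MC38-CMAS KO. It also passed with a mean of at least 10 (0.0359). The 4 calls held without any of the 12 samples. C1galt1c1 itself had an interaction of 0.73 (adjusted p = 0.0201), with the RNA levels given above. Of 5 mesenchymal markers 4 passed as well, Cdh2 upward (2.38) and Col1a1 (-3.81), Col1a2 (-3.53) and Fn1 (-1.28) downward. The list summed to 35962 to 40179 in MC38-MOCK#1, 42933 to 47716 in MC38-CMAS KO, 39107 to 42186 in MC38-COSMC KO and 33815 to 40851 in MC38-DKO. Of 8 epithelial markers Krt20 (-4.29) and Vil1 (3.29) passed, with Epcam and Cdx2 at 0 or 1 in these lines. The part of these markers in the interaction was not tested. The genes within 5 Mb of St3gal5 had a median interaction of 0.34 and those of St6galnac6 of 0.21, and the part of this in both values was not tested.

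**Figure D2:**
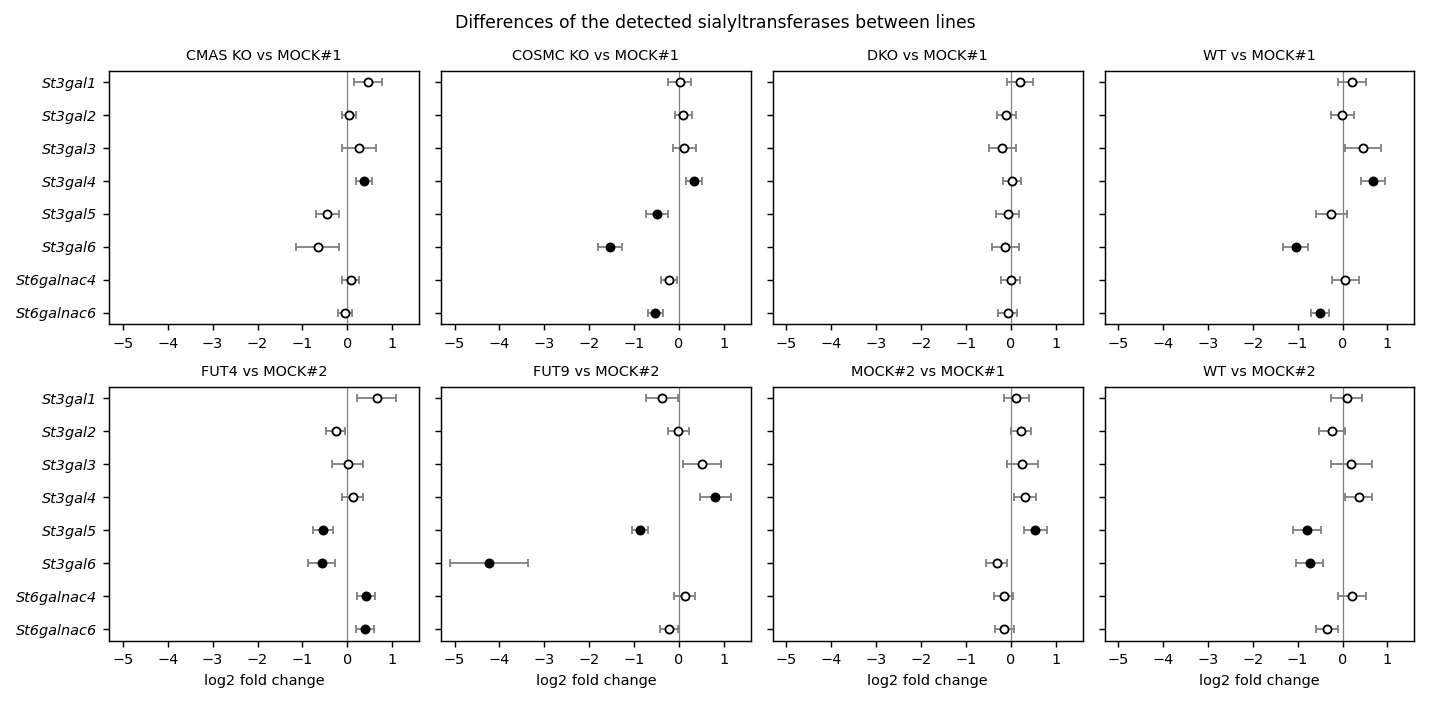
Log2 fold changes (x axis) of the 8 detected sialyltransferases (y axis) in the 8 pairwise comparisons of lines, with 95% intervals from limma. Filled points passed an adjusted p of 0.05. The St3gal6 point of FUT9 vs MOCK#2 lies at -4.23 and all points of DKO vs MOCK#1 are open.

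MC38-FUT9 cells express a fucosyltransferase that completes Lewis X on the same N-acetyllactosamine chains that St3gal3, St3gal4 and St3gal6 cap. Against MC38-MOCK#2, 3 of 8 sialyltransferases changed, where 24.1% of all genes did. St3gal6 fell by 4.23 on the log2 scale (SE 0.36, limma adjusted p = 0.000623), from a mean of 188 ± 4.36 (SD, n = 3) to 10.0 ± 5.57 normalized counts. St3gal4 rose by 0.81 (SE 0.15, adjusted p = 0.00868) and St3gal5 fell by 0.87 (SE 0.074, adjusted p = 0.000617). St3gal3 had 0.51 (95% interval 0.10 to 0.93, adjusted p = 0.0787). It passed in the fits of all 8 lines without (0.0202) and with passage (0.0238) and with the replicate number as a block (0.0228). St3gal2 had -0.01 (-0.24 to 0.21). Dcbld2 differed by 0.06 (adjusted p = 0.668), and the 27 genes tested within 5 Mb of St3gal6 had a median of 0.01. The antisense gene 4930581F22Rik, which overlaps St3gal4, fell by 0.84 (adjusted p = 0.029), opposite to St3gal4. St6galnac6 had -0.23 (adjusted p = 0.103), beside a median of -0.20 of the 129 genes within 5 Mb, and passed without sample 3 of MC38-MOCK#2 (-0.31, adjusted p = 0.0222) or with the libraries rescaled to the same total (-0.31, 0.0236) or in the fits of all 8 lines (-0.23, 0.0323 and 0.0344). St3gal6 and St3gal5 held without any of the 6 samples, and St3gal4 was lost without sample 2 of MC38-MOCK#2 (adjusted p = 0.0521) or of MC38-FUT9 (0.0588).

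In the line labelled FUT4, 5 of 9 sialyltransferases tested changed against MC38-MOCK#2, where 16.1% of all genes did. St3gal5 fell by 0.54 (SE 0.096, limma adjusted p = 0.0108) and St3gal6 by 0.57 (SE 0.13, adjusted p = 0.0278) on the log2 scale. St6galnac4 rose by 0.41 (SE 0.084, adjusted p = 0.019) and St6galnac6 by 0.40 (SE 0.084, adjusted p = 0.0206). St6gal1 is the further gene tested and passed as well (adjusted p = 0.0458), but with 4, 2 and 3 normalized counts against 0, 0 and 1 no fold is given. It met the limit of 4 zeros among 6 samples only through this line, so its call adds nothing to the count. St3gal1 had 0.65 (adjusted p = 0.0568) and passed without sample 2 of this line (0.86, adjusted p = 0.0172), with a mean of at least 10 (0.0352), with median-of-ratios scaling (0.0494) and in the fits of all 8 lines without (0.00401) and with passage (0.00304). Of 8 epithelial markers Krt20 was called higher here (393 against 0.333 normalized counts) and Vil1 lower (0.333 against 4.67), and the list summed to 266 to 476 against 6 to 19 in MC38-MOCK#2, with Epcam at 0 to 3 and Cdx2 at 0. Of 5 mesenchymal markers Col1a1 (25.3 against 111) and Col1a2 (6.33 against 26.3) were lower, while the list summed to 35429 to 38330 against 32721 to 34989. The endothelial marker Cdh5 (10.7 against 1.00) and the leukocyte marker Ptprc (3, 5 and 1 against 0 in every MC38-MOCK#2 sample) were called higher. Their part in the sialyltransferase values was not tested. The 29 genes within 5 Mb of St3gal6 had a median of -0.22 and chromosome 16 one of -0.24, and the part of this in the St3gal6 value was not tested. St3gal5 was lost without sample 2 of MC38-MOCK#2 (0.0593) or sample 1 of the line labelled FUT4 (0.0542). St3gal6 was lost without any sample but FUT4 2 (0.0684 to 0.105) and in the fit of all 8 lines (0.106). Both ST6GalNAc genes were lost without MC38-MOCK#2 2 or any FUT4 sample (0.0547 to 0.0995), and with FUT4 samples 1 and 3 averaged St3gal5 alone of the 5 passed.

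The unmodified cells differed from both mock lines. Passage, puromycin and transfection differ between MC38-WT and MC38-MOCK#1 and cannot be told apart. Of 8 sialyltransferases 3 changed in MC38-WT against MC38-MOCK#1, where 5.51% of all genes did. St3gal6 was 1.05 lower on the log2 scale (log2 fold change -1.05, SE 0.12, limma adjusted p = 0.00603), St6galnac6 had -0.50 (SE 0.083, adjusted p = 0.0203) and St3gal4 0.68 (SE 0.11, adjusted p = 0.0213). Col1a2 (104 against 20 normalized counts) was higher and Cdh2 (175 against 417) lower too, and their part was not tested. With passage as a term in a fit of all lines St3gal6 had -0.72 (adjusted p = 0.257). It was also lost without sample 1 (0.0544) or 2 (0.0774) of MC38-MOCK#1. St3gal4 was lost without any sample but MC38-WT 2 (0.0724 to 0.14) and St6galnac6 without any but MC38-WT 1 (0.0603 to 0.137). Against MC38-MOCK#2, 2 of 8 changed, where 3.11% of all genes did: St3gal5 with -0.80 (SE 0.13, adjusted p = 0.0196) and St3gal6 with -0.73 (SE 0.13, adjusted p = 0.0261). St3gal5 was lost without any sample but MC38-WT 1 (0.0702 to 0.179) and St3gal6 without any of the 6 (0.0725 to 0.165).

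The 2 mock lines were compared with each other as well. St3gal5 was the 1 of 9 sialyltransferases tested that changed between MC38-MOCK#2 and MC38-MOCK#1, where 11.3% of all genes did, so the share of members was that of the background. It was higher by 0.55 in MC38-MOCK#2 (SE 0.11, limma adjusted p = 0.0212), and the call was lost without any sample but MC38-MOCK#1 3 (0.0676 to 0.115). St3gal4 had 0.32 (95% interval 0.08 to 0.56, adjusted p = 0.0942) and St3gal6 -0.32 (-0.55 to -0.08, adjusted p = 0.09). Col1a1 (1.96) was higher and Cdh2 (-1.40) lower in MC38-MOCK#2, and their part was not tested. A fall of St3gal5 against MC38-MOCK#2 is thus measured from the highest of the 8 lines, and a fall of St3gal6 against MC38-MOCK#1 likewise.

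Summed per kilobase, the 10 sialyltransferases amounted to 594 ± 16.7 normalized counts (SD, n = 3) in MC38-COSMC KO, the lowest line, and to 758 ± 30.7 in MC38-MOCK#2, the highest. MC38-FUT9 had 755 ± 56.8 and the line labelled FUT4 747 ± 11.7. The ST3Gal genes held between 70.7% of this sum in the line labelled FUT4 and 79.6% in MC38-FUT9. Larger shifts occurred within them. St3gal4 made up 17.7% in MC38-MOCK#1 and 34.2% in MC38-FUT9, and St3gal6 went from 5.83% to 0.222% between the same lines. St3gal5 held 25.1% in MC38-MOCK#2 and 13.8% in MC38-FUT9. The share of St3gal1 and St3gal2 together stayed between 22.1% and 26.9%. These shares were not tested.

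**Figure D3:**
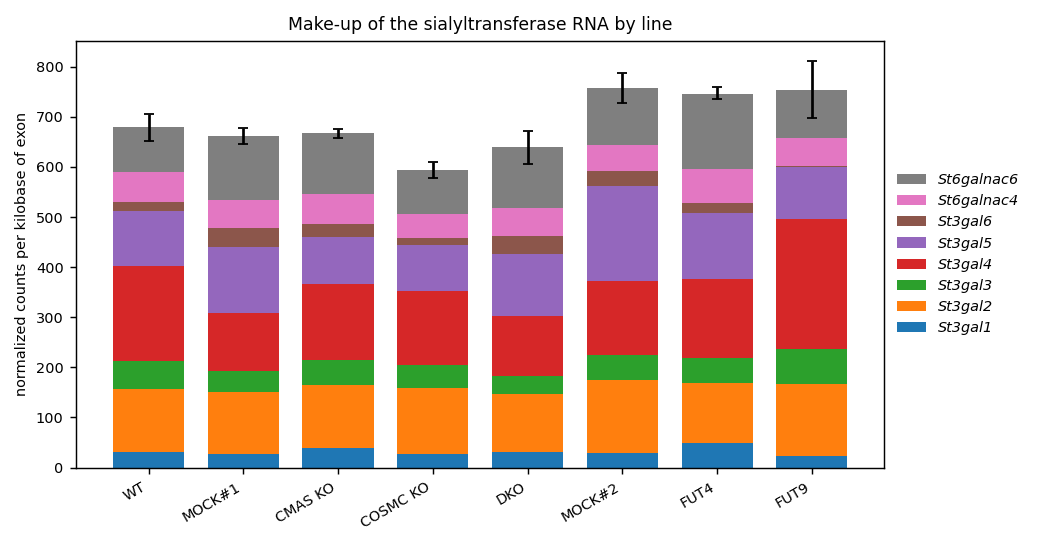
Sum of the sialyltransferase RNA per line (x axis) in normalized counts per kilobase of exon (y axis, linear from 0), split by gene. Segments are means of 3 samples and the whiskers the SD of the sum of all 10 genes. St6gal1 and St6galnac2 are too low to be drawn, and the St3gal4 segment is widest in MC38-FUT9, where that of St3gal6 is almost gone.

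The per-kilobase ratio of St3gal4 to St3gal6 brought both enzymes of the same acceptor together. It was 2.93, 2.84 and 3.39 in MC38-MOCK#1 and 3.38, 3.02 and 3.74 in MC38-DKO, 2 overlapping lines. Its mean was 4.76 in MC38-MOCK#2, 6.36 in MC38-CMAS KO, 7.69 in the line labelled FUT4, 10.1 in MC38-WT and 11.2 in MC38-COSMC KO. In MC38-FUT9 it lay between 97.1 and 374, where the low St3gal6 values make it imprecise.

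Over the 8 line means of log2(value + 1), 28 pairs of detected members were correlated as a description. The coefficients ran from -0.90 to 0.97 with a median of 0.09. St3gal3 and St3gal4 had the highest (Pearson r = 0.97, Spearman rho = 0.93), with r = 0.95 without the 2 lines farthest from the median of St3gal3 and 0.93 without MC38-FUT9. The lowest was that of St3gal4 and St3gal6 (r = -0.90, rho = -0.86), which weakened to -0.57 without the 2 lines farthest from the median of St3gal4 and to -0.70 without MC38-FUT9. The points are all lines of MC38 cells and share the libraries both genes come from.

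**Figure D4:**
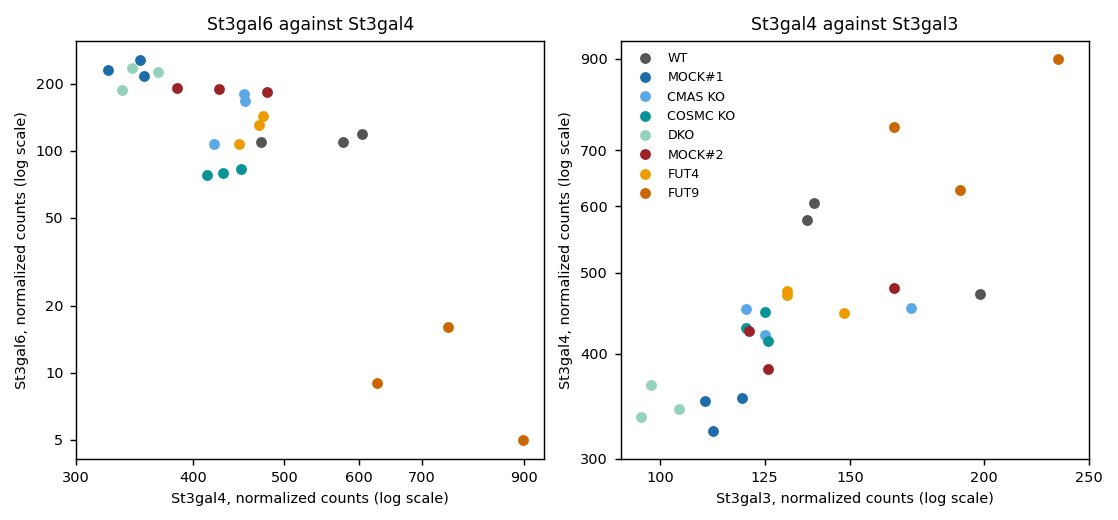
Normalized counts of St3gal6 against St3gal4 (left) and of St3gal4 against St3gal3 (right) in the 24 samples, all axes on a log scale, coloured by line. The 3 MC38-FUT9 samples lie apart at high St3gal4 and low St3gal6, and the samples of MC38-MOCK#1 and MC38-DKO lie at the lower left of the right plot.

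By the same line means, genes most like St3gal6 among those with a mean of at least 50 were Kcnk6 (r = 0.995, 0.962 without MC38-FUT9) and Grn (0.991, 0.959). For St6galnac6 they were Tbc1d25 (0.958), Ccnd3 (0.944) and Fam83d (0.941), and for St3gal4 Usp30 (0.989), Qsox2 (0.987) and Golph3 (0.981). With 8 points and many genes, high coefficients are common.

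The other genes of sialylation were followed as lists. The remaining 10 sialyltransferases, with St6gal2, St6galnac1, St6galnac3, St6galnac5 and the polysialic acid and disialic acid enzymes of the St8sia group, were listed at 6 normalized counts or less in every sample, with St8sia4 the highest. Of the 9 genes of sialic acid supply and modification, 1 of 8 tested changed in MC38-CMAS KO and in MC38-DKO, in both cases Cmas (log2 fold changes -1.82 and -1.57). In MC38-COSMC KO, Casd1, which O-acetylates sialic acid, rose by 0.51 (limma adjusted p = 0.0401) as 1 of 8, where 11.6% of all genes changed.

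In MC38-FUT9 4 of 8 supply genes tested changed, where 24.1% of all genes did. Gne, which makes and phosphorylates N-acetylmannosamine and is the entry enzyme of the pathway, rose by 0.49 (limma adjusted p = 0.0122) and Casd1 by 0.54 (adjusted p = 0.0174). Nans, the sialic acid synthase, fell by 0.32 (adjusted p = 0.0127) and Siae, which removes O-acetyl groups, by 0.50 (adjusted p = 0.0391). Among 3 sialidases tested Neu1, the lysosomal enzyme, fell by 1.02 (adjusted p = 0.00316). In the line labelled FUT4, 2 of 9 supply genes changed, where 16.1% of all genes did, with Gne at 0.34 and Casd1 at -0.61.

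All 7 genes of acceptor synthesis were tested in each comparison. In MC38-COSMC KO 2 fell, where 11.6% of all genes changed, C1galt1c1 by 0.73 (limma adjusted p = 0.0128) and Ugcg by 0.45 (adjusted p = 0.0429). Ugcg encodes glucosylceramide synthase, which starts the lipid chain that St3gal5 later sialylates. In MC38-FUT9 3 of the 7 changed, where 24.1% of all genes did. Ugcg rose by 0.62 (adjusted p = 0.00171) and B4galt6, a lactosylceramide synthase, by 0.55 (adjusted p = 0.0025), whereas Gcnt1, the branching enzyme of O-glycans, fell by 0.66 (adjusted p = 0.0241). In the line labelled FUT4 B4galt1 and B4galt6 fell, by 0.42 and 0.48, 2 of 7 where 16.1% of all genes changed. Ugcg was also lower in MC38-MOCK#2 than in MC38-MOCK#1 (-0.89, adjusted p = 0.00505). In MC38-DKO and MC38-CMAS KO 0 of the 7 passed by limma, with 1 and 2 at an unadjusted p below 0.05. In the interaction term, which 22.1% of all genes passed, C1galt1c1 and Gcnt1 (0.52) passed upward and, among the supply genes, Casd1 downward (-1.07, limma adjusted p = 0.000761).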

How the data were processed

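RNA of 24 samples was sequenced from TruSeq Stranded mRNA libraries. According to the labels and the study's methods, the authors trimmed reads before alignment by HISAT2 2.0.4 to GRCm38, and used SAMtools 0.1.19, featureCounts (Subread 1.5.0-p3) and edgeR 3.18.1 to process, count and normalize them. Reads that overlapped several genes were not counted, which can lower genes with shared exon bases. What the authors deposited is treated here as a score, namely normalized counts rounded to whole numbers, and count models were therefore not applied. Reads per sample are therefore not known from the totals.

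Differences were tested with limma 3.58.1 in R 4.3.3 (lmFit, eBayes with trend) after log2 transformation with a pseudocount of 1, so fold changes of low genes are understated. Each pair of lines was fitted alone, as in the study's methods. Genes with more than 4 zeros among 6 samples (8 of 12, 20 of 24) were left out. These limits stayed the same when samples were left out or averaged, so more genes were then tested. The p was adjusted by Benjamini-Hochberg over all genes tested, with a threshold of 0.05. On simulated data with 200 genes changed 2-fold, limma called 144 for FUT9 vs MOCK#2 among 22242 genes. It called 171 for the 8 lines among 23840 and 149 for the interaction among 21869. Of the unchanged genes 3, 6 and 10 were called in the same order. Smaller changes, or changes in as many genes as in the data, were not simulated.

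Samples were grouped by their labels. The 10 sialyltransferases and the lists of the other genes of sialylation and of cell type markers were chosen with earlier results of these data known. Genes named besides them are the 3 most alike to St3gal6, St6galnac6 and St3gal4 over the line means, of which 1 is not reported here, and the genes that overlap members. Dcbld2 and 4930581F22Rik were named after the overlap was seen in the annotation. The symbol St6galnac2 has a further identifier, which was listed at 0 in all samples and was left out. Exon lengths come from the GRCm38 annotation and upstream sequences from RefSeq. Alternatives were the pseudocount, filters, scalings, eBayes without a trend, fits of all lines with and without passage, the replicate number as a block and leaving out each sample. Summaries and plots were made in Python 3.11.15 with numpy 2.4.6, pandas 2.3.3 and matplotlib 3.10.9.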

Additional observations from a re-analysis of the deposited data

Results flagged for a closer look

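Of 8 sialyltransferases tested, 4 passed the interaction term of limma over 12 samples, where 22.1% of all genes did. Their difference between lines with and without the targeted COSMC gene was not the same with and without targeted CMAS. Each genotype was 1 line, so the targeting and other differences between lines cannot be told apart. The interaction was 2.08 on the log2 scale for St3gal6, 0.86 for St3gal5, -0.67 for St3gal4 and 0.51 for St6galnac6. MC38-DKO differed from MC38-MOCK#1 by -0.12, -0.07, 0.03 and -0.07 in the same order, whereas in MC38-COSMC KO all 4 genes had changed. Over all genes 0.092% changed between MC38-DKO and MC38-MOCK#1. Leaving out any of the 12 samples kept each call, with values of 1.85 to 2.22, 0.78 to 0.95, -0.71 to -0.63 and 0.44 to 0.58 in that order. C1galt1c1 RNA was lower in MC38-COSMC KO than in MC38-DKO, and its part in these values was not tested.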

How the results depend on the processing

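The sialyltransferase counts over the 8 lines (8, with St6gal1 among them) and in the interaction (4) stayed within 1.5 times under every alternative. That of MC38-DKO stayed at 0. Without a variance trend the count went from 1 to 0 in MC38-CMAS KO, from 4 to 2 in MC38-COSMC KO, from 3 to 1 in MC38-WT against MC38-MOCK#1, from 5 to 2 in the line labelled FUT4, from 1 to 0 between the mock lines and from 2 to 0 in MC38-WT against MC38-MOCK#2. The count over all genes went from 1268 to 726, 2563 to 1135, 1192 to 717, 3509 to 2270, 2454 to 1389 and 663 to 289 in the same order. With all 8 lines in a single fit the sialyltransferase count was 2 in MC38-CMAS KO, 5 in MC38-FUT9 and 2 between the mock lines. That over all genes was 2207, 5928 and 3976 there, against 1268, 5166 and 2454 in the main fits. With passage as a term the sialyltransferase count was 2 in MC38-CMAS KO and 5 in MC38-FUT9, where 2230 and 5937 of all genes passed. With a mean of at least 10 it was 2 in MC38-CMAS KO, where 1634 of all genes passed. Averaging samples 1 and 3 of the line labelled FUT4 was an alternative chosen after seeing the data. With it the count there was 1655 over all genes and 1 of the sialyltransferases. Leaving out each sample in turn gave 0 to 0 in MC38-CMAS KO, 1 to 3 in MC38-COSMC KO, 0 to 2 in MC38-WT against MC38-MOCK#1, 0 to 4 in the line labelled FUT4, 2 to 4 in MC38-FUT9, 0 to 1 between the mock lines, 0 to 1 in MC38-WT against MC38-MOCK#2, 8 to 9 over the 8 lines and 4 to 5 in the interaction. Over all genes the pairwise fits also called fewer, 127 to 724 in MC38-CMAS KO (1268 in the main fit). MC38-COSMC KO had 509 to 2026 (2563), the line labelled FUT4 1527 to 2807 (3509) and MC38-FUT9 2566 to 4671 (5166). Between the mock lines it was 474 to 1608 (2454). MC38-WT had 29 to 666 (1192) against MC38-MOCK#1 and 1 to 220 (663) against MC38-MOCK#2. The causes were not tested.

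Adding a replicate block, the count was 0 in MC38-CMAS KO, 0 in MC38-COSMC KO (St3gal6 -1.54, adjusted p = 0.0771), 0 in MC38-WT against MC38-MOCK#1, 0 in MC38-WT against MC38-MOCK#2 and 1 in the line labelled FUT4, with fewer residual degrees of freedom, and over all genes the MC38-COSMC KO count went from 2563 to 4. The block moved no other of these counts by over 1.5 times. The numbers were not taken to pair the samples, since no comparison had every same-numbered correlation of deviations above 0.1. They came closest in MC38-FUT9 and between the mock lines (lowest 0.0912 and 0.0948), where 6 of 6 samples correlated best with their own number. Samples of the same number also had the same passage in MC38-FUT9 and MC38-MOCK#2 (6, 7 and 8). The same holds for MC38-MOCK#1 and the knockouts (4, 5 and 6). With the block St3gal3 passed in MC38-FUT9 (0.51, limma adjusted p = 0.0228).

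Signs turned only for members that had not passed. They were St3gal2 in MC38-CMAS KO (-0.0059 to 0.055 without a sample), St3gal1 in MC38-COSMC KO (-0.043 rescaled to the same total, -0.018, -0.0014 and -0.031 without a sample, at most 0.060), in MC38-DKO St3gal4 (-0.015 and -0.012, at most 0.052), St6galnac4 (0.022 and 0.038) and St3gal5 (-0.16 to 0.013) without a sample, in MC38-WT against MC38-MOCK#1 St3gal2 (0.0019 with median-of-ratios scaling, 0.041, 0.063, 0.020 and 0.015 without a sample, at least -0.11) and St6galnac4 (-0.035 to 0.19 without a sample), St3gal3 in the line labelled FUT4 (-0.0044 rescaled, -0.0087 averaged, -0.050, -0.079 and -0.054 without a sample, at most 0.14) and St3gal2 in MC38-FUT9 (0.069 and 0.036 without a sample, at least -0.075). Over all single genes and settings, 97 values lost a call, 26 gained one and 1342 kept direction and call. Rounding and a depth that is not known limit St6gal1, St6galnac2 and the St3gal6 values of MC38-FUT9.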
